A study of Mus musculus with 18 samples.

Results

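Colonic transcripts of 8 serine proteases (Prss56, Prss22, Prss8, Prss23, St14, Tmprss2, Tmprss4 and Plau) and of 2 Kunitz-type inhibitors (Spint1 and Spint2) were followed across 9 RNA-Seq libraries of mouse colon. These 10 genes, of 47729 in the count table, were listed by name, and each name matched 1 row. Prss56 and Prss22 were picked on their gain in the WT colon after treatment, so their values are given as a description without a test in every comparison, because each comparison uses libraries of the contrast that the choice was made on. The list was drawn up with earlier results of these data known, but the rule for the other 8 used no measured value, and they were tested.

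All mice were on a C57BL/6 background. The 3 control libraries (1 to 3) came from WT colon whose treatment label is control. Their protocol field holds the same AOM and DSS text as that of the treated libraries, and they were taken as untreated from the treatment label, on which each comparison with control rests. The 3 WT AOM-DSS libraries (4 to 6) came from WT colon after azoxymethane (AOM, a carcinogen), given once at 10 mg/kg, and 3 cycles of 2.5% dextran sulfate sodium (DSS, which injures the colonic epithelium), a regimen that produces colitis-associated cancer. The 3 Claudin-2TG AOM-DSS libraries (7 to 9) came from mice that received the same agents and carry a Cldn2 transgene under the villin promoter, which is active in intestinal epithelial cells. No untreated transgenic group was among these libraries, so the effect of the transgene alone cannot be told apart from that of the treatment in the comparison with control colon. The labels number the libraries without saying that each came from a separate animal, so p-values measure the spread between these libraries.

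Serine proteases of the epithelium are made as inactive precursors and act on or near the cell surface. St14 (matriptase) is a transmembrane protease and Prss8 (prostasin) is held by a lipid anchor; both are needed for epithelial barriers, and prostasin can activate the epithelial sodium channel. Spint1 and Spint2 encode HAI-1 and HAI-2, membrane-bound inhibitors that restrain matriptase and related enzymes, while Plau encodes urokinase, the secreted protease that converts plasminogen to plasmin.

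The coding stretch around the active-site serine is shown because it is what the proteases have in common and was not used to list them. It was located in the longest complete coding transcript of each gene in GENCODE M21 (GRCm38) as the in-frame run of codons for glycine, aspartate, serine and glycine. The run was found once in 7 of the 8 proteases. The same run was not found in Prss23, nor in the inhibitors. In each line the serine codon is in capitals, the stretch has 33 coding bases, and the coordinates span the intron that interrupts it.
Prss56, chr1:87186028-87186294 on the plus strand: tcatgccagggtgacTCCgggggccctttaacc
Prss22, chr17:23994021-23994607 on the minus strand: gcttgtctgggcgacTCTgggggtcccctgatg
Prss8, chr7:127926617-127926753 on the minus strand: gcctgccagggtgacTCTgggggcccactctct
St14, chr9:31090004-31090410 on the minus strand: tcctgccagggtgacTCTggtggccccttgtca
Tmprss2, chr16:97567152-97567604 on the minus strand: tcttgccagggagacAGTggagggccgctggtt
Tmprss4, chr9:45173984-45175110 on the minus strand: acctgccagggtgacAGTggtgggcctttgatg
Plau, chr14:20841086-20842297 on the plus strand: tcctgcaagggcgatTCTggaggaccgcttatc
In all 7 genes the intron fell after the same base of the window, the ninth, so that the first 9 bases lie in an exon and the serine codon in the next. The serine codon began with TC in Prss56, Prss22, Prss8, St14 and Plau, and was AGT in the transmembrane proteases Tmprss2 and Tmprss4. Over the 33 bases, Prss8 and St14 had the most in common of any pair, 27 bases. Prss56 shared 26 with St14, 25 with Prss8, 23 with Tmprss4, 22 with Plau, 21 with Prss22 and 20 with Tmprss2.

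All 10 genes are annotated as protein-coding on GRCm38. Of the anchored proteases, the table places Prss8 (ENSMUSG00000030800) at chr7:127925716-127930104 on the minus strand, St14 (ENSMUSG00000031995) at chr9:31089402-31131853 on the minus strand, Tmprss2 (ENSMUSG00000000385) at chr16:97564684-97611195 on the minus strand and Tmprss4 (ENSMUSG00000032091) at chr9:45172726-45204092 on the minus strand. The secreted proteases are Prss56 (ENSMUSG00000036480) at chr1:87183313-87188405 on the plus strand, Prss22 (ENSMUSG00000045027) at chr17:23993535-23998100 on the minus strand, Prss23 (ENSMUSG00000039405) at chr7:89507783-89527187 on the minus strand and Plau (ENSMUSG00000021822) at chr14:20836662-20843388 on the plus strand. The inhibitors are Spint1 (ENSMUSG00000027315) at chr2:119237362-119249527 on the plus strand and Spint2 (ENSMUSG00000074227) at chr7:29256323-29281912 on the minus strand. Counts were taken over the exons of each gene. Tmprss4 shares 412 exonic bases with Gm17099 on the opposite strand, which had 0 counts.

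Promoter sequence is shown for Prss56, which was listed for its gain, and for Spint1, the member with a called rise in both treated groups. The RefSeq table (GRCm38.p6) held promoters, 250 bases before to 50 bases after the start, for Prss56, Prss23, Tmprss2, Spint1 and Spint2. Capitals mark a match to any of 4 short motifs searched on both strands: TATAAA (the TATA box), TGANTCA (the AP-1 core), ATCAAAG (a TCF/LEF core) and a core of 10 bases for NF-kB.
Prss56 promoter, chr1:87183064-87183363 on the plus strand: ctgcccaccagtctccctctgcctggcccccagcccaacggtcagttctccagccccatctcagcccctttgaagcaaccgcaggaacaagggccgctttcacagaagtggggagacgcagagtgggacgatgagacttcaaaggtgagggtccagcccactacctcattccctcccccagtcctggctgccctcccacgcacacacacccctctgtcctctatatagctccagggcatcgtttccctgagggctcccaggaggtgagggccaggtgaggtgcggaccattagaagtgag
Spint1 promoter, chr2:119237110-119237409 on the plus strand: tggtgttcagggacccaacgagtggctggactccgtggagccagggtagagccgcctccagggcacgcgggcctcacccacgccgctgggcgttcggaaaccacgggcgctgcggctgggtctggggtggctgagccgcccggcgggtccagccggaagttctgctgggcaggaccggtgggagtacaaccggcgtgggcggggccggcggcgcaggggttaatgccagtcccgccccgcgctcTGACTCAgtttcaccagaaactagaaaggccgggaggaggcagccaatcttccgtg
The Prss56 window had a GC content of 61.7% and 8 CpG and no match. The Spint1 window had a GC content of 69.7% and 28 CpG, with a match to TGANTCA that begins 6 bases before the start. Overlapping windows of Prss23, which was not higher in treated WT colon, also held TGANTCA, at -146 and -169 from their starts. That motif was present in 7.81% of the 32851 promoters in the table, against 13.6% for TATAAA, 3.73% for ATCAAAG and 1.63% for the NF-kB core. A match describes letters in the window and is not evidence of binding.

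The libraries held 14142711 to 22262546 counts each, and values are given as CPM, reads of a gene per unit of library size, with library sizes scaled by TMM factors. Cldn2 was at 192 to 258 CPM in control, 122 to 136 CPM in WT AOM-DSS and 209 to 249 CPM in Claudin-2TG AOM-DSS colon, so the treated groups were in the order of the transgene label, while the transgenic and control values overlapped. Control library 1 stood apart: Xist was at 215 CPM there and at most 0.204 CPM elsewhere, while 4 Y-linked genes (Ddx3y, Eif2s3y, Kdm5d and Uty) were at most 0.199 CPM there and at least 20.5 CPM elsewhere. Calls that were lost without this library are given below with and without it. Epithelial markers fitted the tissue label: Epcam was at 2230 to 2780 CPM, and the sum of 10 epithelial markers ran from 21700 to 22800 CPM in control, 21400 to 28100 CPM in WT AOM-DSS and 23300 to 28300 CPM in Claudin-2TG AOM-DSS colon.

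Prss56 and Prss22 were found almost only in treated WT colon. Prss56, a secreted trypsin-like protease known from the eye, had no read in the 3 control and the 3 Claudin-2TG libraries. In WT AOM-DSS libraries 4, 5 and 6 it had 56, 126 and 38 reads, which is 2.91, 5.53 and 2.59 CPM (mean 3.68 ± 1.61, SD, n = 3). A count of 0 allows up to 3 reads, or 0.129 to 0.150 CPM in the control and 0.151 to 0.22 CPM in the transgenic libraries. Against that limit in each library, the WT AOM-DSS level was at least 25.7-fold higher than in control and at least 19.1-fold higher than in Claudin-2TG colon. Without library 5, which holds most of the reads, these bounds were 19.2-fold and 14.3-fold.

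Prss22 encodes a secreted tryptase of epithelial tissues. The 3 control libraries had 0, 0 and 1 reads, and the 3 transgenic libraries had 4, 6 and 0 reads (0.276, 0.302 and 0 CPM). WT AOM-DSS libraries 4, 5 and 6 had 81, 817 and 700 reads, or 4.21, 35.9 and 47.6 CPM (mean 29.2 ± 22.5, SD, n = 3). Every treated WT library was above all the others, and the spread inside that group was wide, with library 4 well under libraries 5 and 6. The ratio of summed reads per library size was 135 against the transgenic group (exact 95% counting interval 73.3 to 282) and 1780 against control (319 to 70400, from a single control read). These intervals cover counting error only. Without library 4 the ratio to the transgenic group was 194, and without library 9 it was 96.7.

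**Figure D1:**
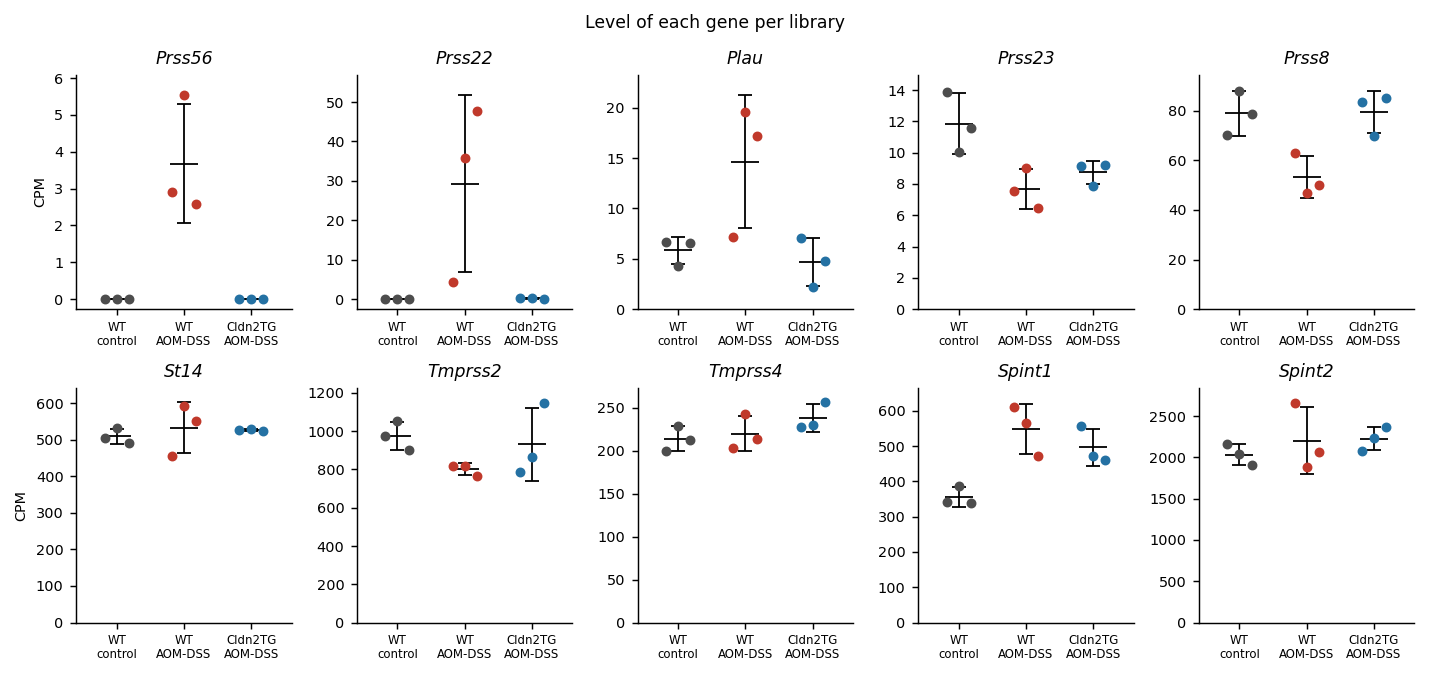
Level of each of the 10 genes in CPM (linear y axis) for each library, by group on the x axis; points are libraries, in order of number from left to right, and the bar with whiskers is the mean ± SD of 3 libraries. Prss56 and Prss22 are near 0 outside WT AOM-DSS, Prss8 is lower in WT AOM-DSS than in both other groups, and Spint1 is higher in both treated groups than in control.

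Among the 8 tested genes, WT AOM-DSS against WT control called 2, Spint1 higher and Prss8 lower, in edgeR's quasi-likelihood test with Benjamini-Hochberg adjustment over all 15437 genes tested. Over those genes 15% were called at an adjusted p under 0.05. The groups did not overlap for 5 of the 8 genes (Spint1, Prss8, Prss23, Plau and Tmprss2), where 38.0% of all genes did not overlap. The 5 genes had an unadjusted p under 0.05, and the median log2 fold change of the 8 was 0.06, beside 0.02 over all genes. Of all 10 genes, 10 passed the filter on low counts here and in the comparison of the treated groups, where Prss56 and Prss22 passed through the WT AOM-DSS libraries, and 8 passed in Claudin-2TG AOM-DSS against WT control.

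Of the 4 proteases anchored to the cell, Prss8 alone was called in this comparison. Prss8 was at 70.0, 87.8 and 78.7 CPM in control libraries, at 62.9, 46.9 and 50.1 CPM in WT AOM-DSS libraries and at 83.5, 69.6 and 85.0 CPM in Claudin-2TG libraries. All 3 treated WT libraries lay under the 6 others, and the control and transgenic values overlapped. The fall in treated WT colon was 1.47-fold (log2 fold change -0.56, SE 0.143, 95% confidence interval -0.89 to -0.23, edgeR adjusted p = 0.0379). The call was lost without control 1 (edgeR adjusted p = 0.069), control 2 (0.144), control 3 (0.116), WT AOM-DSS 5 (0.0903) or WT AOM-DSS 6 (0.0988). Exons of Prss8 share 122 of their 1852 bases with Kat8 on the opposite strand, and whether counting used the strand is not given in the sources used here.

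St14, the transmembrane protease matriptase, varied little between groups. It was at 504, 532 and 492 CPM in control, 456, 594 and 551 CPM in WT AOM-DSS and 528, 530 and 523 CPM in Claudin-2TG libraries, and the groups overlapped. The log2 fold change in treated WT colon was 0.07, with a 95% confidence interval of -0.23 to 0.38 and an edgeR adjusted p of 0.739. Tmprss4, also a transmembrane protease, was at 200, 229 and 212 CPM in control, 203, 242 and 214 CPM in WT AOM-DSS and 227, 230 and 257 CPM in Claudin-2TG libraries. Its log2 fold change in treated WT colon was 0.05 (interval -0.23 to 0.32, edgeR adjusted p = 0.824). A p that misses the threshold does not show equal levels, and the intervals give the range of change that these libraries allow.

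Tmprss2, the most abundant member protease, was at 974, 1051 and 903 CPM in control and 819, 819 and 767 CPM in WT AOM-DSS libraries, so that the groups were apart. The difference of -0.28 on the log2 scale (SE 0.115) had an unadjusted p of 0.0416 and an edgeR adjusted p of 0.136, and was not called. In Claudin-2TG libraries it was at 784, 867 and 1148 CPM, with library 9 the highest of all 9.

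Neither of the secreted proteases that were tested, Plau and Prss23, was called in treated WT against control colon. Plau was at 6.67, 4.26 and 6.59 CPM in control, 7.18, 19.6 and 17.2 CPM in WT AOM-DSS and 7.05, 2.22 and 4.76 CPM in Claudin-2TG libraries. Libraries 5 and 6 were far above the rest, while library 4 lay only just above the highest value of the other groups. Its log2 fold change in treated WT colon was 1.33 (SE 0.38), which missed the threshold (edgeR adjusted p = 0.0532). Without library 4 it was 1.66 with an edgeR adjusted p of 0.0022, and DESeq2 called it on all 6 libraries (adjusted p = 0.00438). Over its 14 alternatives the adjusted p ran from 0.0022 to 0.169.

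Prss23, a secreted protease, was at 13.9, 10.1 and 11.6 CPM in control and 7.54, 9.04 and 6.46 CPM in WT AOM-DSS libraries, with no overlap. The log2 difference was -0.62 (SE 0.203, edgeR adjusted p = 0.0776), and it was called by DESeq2 (adjusted p = 0.0478) and with all 9 libraries in the edgeR fit (0.0398). In Claudin-2TG libraries it was at 9.12, 7.86 and 9.23 CPM. Prss23 shares 864 exonic bases with Prss23os on the opposite strand, which had 1 count over all libraries.

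Of the inhibitors, Spint1 was called and Spint2 was not, and the difference between them was not tested. Spint1, which encodes HAI-1, was at 342, 387 and 337 CPM in control, 610, 565 and 472 CPM in WT AOM-DSS and 556, 473 and 460 CPM in Claudin-2TG libraries. All 6 treated libraries were above all 3 controls, and the treated groups overlapped. The rise in treated WT colon was 1.55-fold (log2 fold change 0.63, SE 0.132, 95% confidence interval 0.33 to 0.93, edgeR adjusted p = 0.0226). The call was lost without control 1 (edgeR adjusted p = 0.0861), control 2 (0.0779), control 3 (0.0987) or WT AOM-DSS 5 (0.0523), while the log2 fold change stayed between 0.55 and 0.73.

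Spint2, which encodes HAI-2, was the most abundant member, at 2159, 2037 and 1902 CPM in control, 2663, 1887 and 2060 CPM in WT AOM-DSS and 2079, 2235 and 2364 CPM in Claudin-2TG libraries. The groups overlapped, library 4 held the highest value, and the log2 fold change in treated WT colon was 0.12 (95% confidence interval -0.23 to 0.47, edgeR adjusted p = 0.622).

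**Figure D2:**
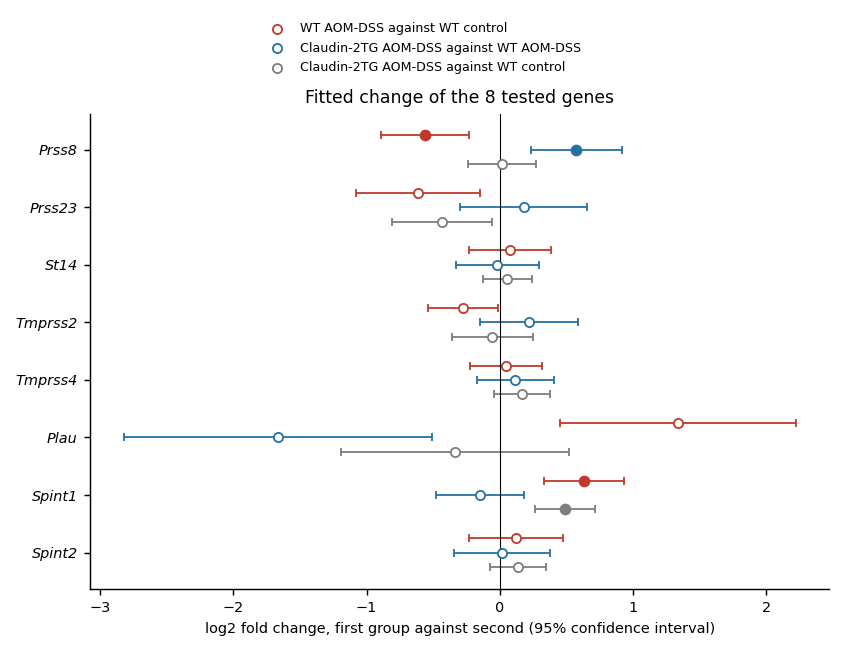
Log2 fold change (x axis) of the 8 tested genes (y axis) in 3 comparisons, from edgeR; whiskers are 95% confidence intervals and filled points have an adjusted p under 0.05. The filled points are Prss8 in both comparisons with WT AOM-DSS, on opposite sides of 0, and Spint1 in both comparisons with WT control.

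Claudin-2TG AOM-DSS against WT AOM-DSS asked how the transgene alters the treated colon. It called 1 of the 8 genes, Prss8, among 14888 genes of which 9.54% were called. The groups did not overlap for 2 of the 8, Prss8 and Plau, against 28.0% of all genes. These 2 had an unadjusted p under 0.05, as did 3498 of the 14888 genes tested. Prss8 was 1.49-fold higher in the transgenic colon (log2 fold change 0.57, SE 0.15, 95% confidence interval 0.23 to 0.91, edgeR adjusted p = 0.0462). The call was lost without WT AOM-DSS 5 (edgeR adjusted p = 0.148), WT AOM-DSS 6 (0.135), Claudin-2TG 7 (0.152), 8 (0.0927) or 9 (0.157). It was also lost with library size only (0.0781), upper quartile scaling (0.0609) and at least 10 counts in every library (0.0687). In lane 1 only (0.0699) and lane 2 only (0.0527) it was lost too. Over 14 alternatives, 4 of them with a call, the adjusted p ran from 0.00688 to 0.157. The comparison shares its WT AOM-DSS libraries with the one before, so the opposite signs of Prss8 in them are not independent.

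Plau was lower by 1.66 on the log2 scale in the transgenic colon (SE 0.497, edgeR adjusted p = 0.0826), a 3.17-fold difference between means of 4.68 ± 2.42 and 14.7 ± 6.58 CPM (SD, n = 3) that was not called. Without library 4 the difference was -2.0 with an edgeR adjusted p of 0.00922. It was also called by DESeq2 (adjusted p = 0.00309) and with all 9 libraries in the edgeR fit (0.0368), and over 14 alternatives, 3 of them with a call, the adjusted p ran from 0.00309 to 0.221. The other 6 genes overlapped between the treated groups, with adjusted p-values from edgeR of 0.503 (Tmprss2) to 0.976 (Spint2). For St14 the interval of the log2 difference was -0.33 to 0.29, for Spint2 -0.34 to 0.37, for Spint1 -0.48 to 0.18 and for Tmprss4 -0.17 to 0.40.

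Claudin-2TG AOM-DSS against WT control called Spint1 alone of the 8, among 15013 genes of which 10.0% were called. The groups did not overlap for Spint1 and Prss23, against 31.4% of all genes. Both had an unadjusted p under 0.05, as did 3896 of the 15013 genes tested. Spint1 was 1.40-fold higher (log2 fold change 0.49, SE 0.104, 95% confidence interval 0.26 to 0.71, edgeR adjusted p = 0.0166). Without control 1 the edgeR adjusted p was 0.0553, without control 3 it was 0.0681, and with all 9 libraries in the fit it was 0.0715. Both Spint1 calls rest on the same control libraries and are not independent. Prss23 was lower by 0.44 on the log2 scale (SE 0.171, edgeR adjusted p = 0.135). For Prss8 the log2 difference was 0.02 (interval -0.24 to 0.27), and scaling by library size alone, which moved the median of all genes to -0.111, turned its sign (-0.10).

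Levels were compared between genes only per kilobase of exon. In control colon the order was Spint2 (446 ± 28.1 CPM per kb, SD, n = 3), Tmprss2 (309 ± 23.4), Spint1 (129 ± 9.96), St14 (111 ± 4.48), Tmprss4 (82.5 ± 5.72), Prss8 (42.6 ± 4.80), Prss23 (3.15 ± 0.511) and Plau (2.49 ± 0.584). Prss23 and Plau overlapped, and the other neighbours in this order did not. In both treated groups the first 6 places were held by the same genes in the same order, with no overlap among them. In WT AOM-DSS colon Prss22 reached 22.1 ± 17.0 CPM per kb, overlapping both Prss8 above it (28.8 ± 4.57) and Plau under it (6.25 ± 2.81), and Prss56 at 1.69 ± 0.741 CPM per kb overlapped Prss23 (2.04 ± 0.344).

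**Figure D3:**
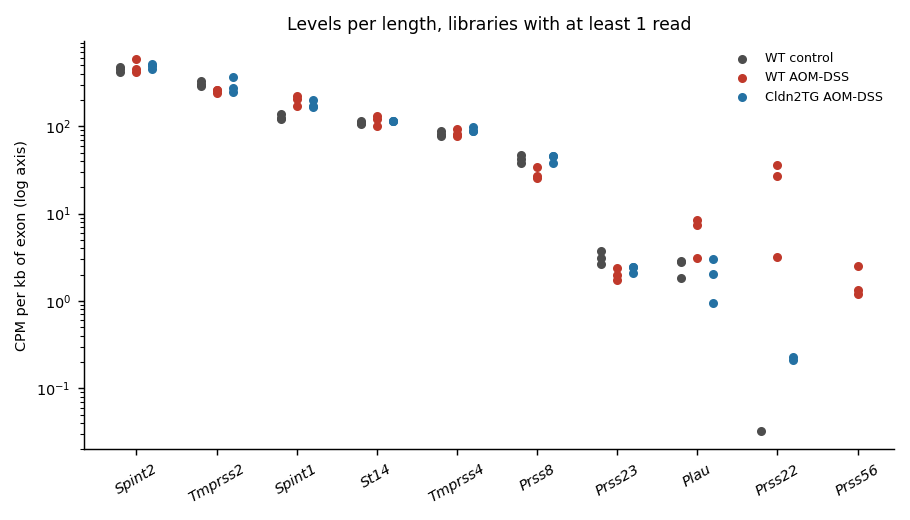
Level per kilobase of exon (log y axis, CPM per kb) of each gene (x axis) in each library with at least 1 read, colored by group. Spint2 to Prss8 keep their order in every group, while Prss22 and Prss56 reach the range of Plau and Prss23 in WT AOM-DSS libraries.

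Ratios within a library do not depend on scaling between libraries, and 30 of them were compared by exact permutation of the 6 library labels (two-sided), which with 3 against 3 gives no p under 0.1. Prss8 relative to the sum of the 10 epithelial markers was lower in WT AOM-DSS than in control by 0.68 on the log2 scale with no overlap (exact p = 0.1, adjusted 0.429), and higher in Claudin-2TG than in WT AOM-DSS colon by 0.47 (exact p = 0.1, adjusted 0.429). Spint1 relative to those markers was 0.51 higher in WT AOM-DSS than in control (exact p = 0.1, adjusted 0.429), without overlap, and 0.26 higher in Claudin-2TG than in control colon, with overlap (exact p = 0.2, adjusted 0.462). St14 per kilobase relative to Spint1 plus Spint2 was lower in Claudin-2TG than in control colon by 0.17 (log2 ratios -2.54 ± 0.0414 and -2.37 ± 0.0623, SD, n = 3, exact p = 0.1, adjusted 0.429), without overlap. In WT AOM-DSS colon that ratio was -2.55 ± 0.41, a spread that covered both other groups. Plau relative to the same inhibitors overlapped in each comparison. None of the 30 can therefore pass 0.05.

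Some other genes of the plasminogen system were higher in treated WT colon. Of 13 genes listed, 9 were tested and 4 rose in WT AOM-DSS against control, with none called lower and a median log2 fold change of 0.95 beside 0.02 over all genes. Plat, the tissue-type plasminogen activator, was at 4.98, 3.06 and 4.26 CPM in control, 12.2, 52.5 and 71.2 CPM in WT AOM-DSS and 3.04, 4.43 and 7.69 CPM in Claudin-2TG libraries. It rose 11.1-fold in treated WT colon (log2 fold change 3.47, SE 0.643, edgeR adjusted p = 0.0208). Plaur, the urokinase receptor, rose from 3.79 ± 0.857 to 24.1 ± 12.2 CPM (SD, n = 3, edgeR adjusted p = 0.0157). Anxa2, a plasminogen-binding surface protein, rose from 892 ± 53.6 to 1710 ± 196 CPM (SD, n = 3, edgeR adjusted p = 0.00834). Several of these calls were lost when 1 control was left out. Without control 2 the edgeR adjusted p was 0.0872 for Plat, 0.0741 for Plaur and 0.0594 for Anxa2. Without control 3 it was 0.068 for Plat and 0.0626 for Plaur, and without control 1 it was 0.065 for Plat. The log2 fold change of Plat was then 3.63, 3.29 and 3.48 without control 1, 2 or 3, against 3.47 with all. Without control 2 it was 2.54 for Plaur and 0.91 for Anxa2, against 2.68 and 0.95. Calls over all genes fell from 2310 to 631, 135 and 404 without control 1, 2 or 3. With no filter on low counts the edgeR adjusted p of Plat was 0.0853. Plg, the substrate, was listed at 0 in 8 of the 9 libraries and had 1 read in control 2.

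Between the treated groups, 4 of 9 tested plasminogen genes were lower in Claudin-2TG than in WT AOM-DSS colon and none higher, with a median log2 fold change of -1.34 beside 0.01 over all genes. Plat was 9.0-fold lower (edgeR adjusted p = 0.039) and Anxa2 was 1.70-fold lower (0.0133). Serpine2 (log2 fold change -1.68, edgeR adjusted p = 0.00973) and Serpinb8 (-2.03, 0.0312) are named after their values were seen. The Plat call was lost when any of libraries 5 to 9 was left out (adjusted p 0.086 to 0.145), with no filter (0.158) and in lane 2 only (0.0612), and that of Anxa2 without library 7 (0.0661), 8 (0.0783) or 9 (0.0784). Serpine2 was not called without library 8 (0.0628) or 9 (0.0506), nor Serpinb8 without any 1 of libraries 5 to 9 (0.0908 to 0.127). Plaur (log2 difference -1.66) was not called (edgeR adjusted p = 0.0872), but was without library 4 (0.00261), by DESeq2 (0.00154) and with all 9 libraries in the edgeR fit, and over 14 alternatives the adjusted p ran from 0.00154 to 0.279. In Claudin-2TG against control colon, 1 of 8 tested genes was called, Serpine2, again named after its value was seen (log2 fold change -1.40, edgeR adjusted p = 0.00995).

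**Figure D4:**
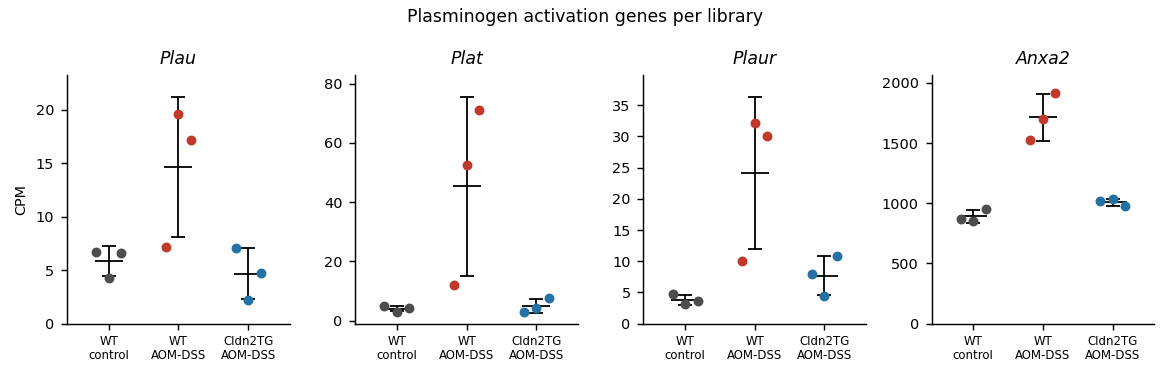
Level in CPM (linear y axis) of Plau and 3 genes of plasminogen activation in each library, by group on the x axis; points are libraries in order of number and bars are the mean ± SD of 3 libraries. Library 4, the first WT AOM-DSS point, is the lowest of its group for all 4 genes, and Anxa2 lies between 1526 and 1917 CPM in WT AOM-DSS and at most 1034 CPM elsewhere. Cldn2TG stands for Claudin-2TG.

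Library 4 was also the lowest of its group for the summed markers of macrophages, T cells, B and plasma cells, fibroblasts, mast cells and squamous epithelium, as for Plau, Plat and Plaur. It was the highest of its group for those of epithelium, smooth muscle, neuron and glia, and the pancreas list. The 8 macrophage markers summed to 149, 299 and 331 CPM in libraries 4, 5 and 6, against 62.3 to 111 CPM in control and 40.1 to 77.4 CPM in Claudin-2TG libraries, and 7 of 8 were called higher in treated WT colon than in control. The 7 T cell markers summed to 21.3 to 36.3 CPM in WT AOM-DSS, 6.16 to 12.2 CPM in control and 7.35 to 11.9 CPM in Claudin-2TG libraries. The 6 B and plasma cell markers summed to 242 to 457 CPM, 41.2 to 94.5 CPM and 39.1 to 107 CPM in the same order. The 7 fibroblast markers summed to 465 to 1130 CPM, 308 to 434 CPM and 186 to 267 CPM, with none called by edgeR between treated and control WT colon (4 had an unadjusted p under 0.05). The 9 mast cell markers summed to 22.6 to 88.4 CPM, 9.02 to 10.3 CPM and 12.1 to 15.5 CPM. The part of these cells in the protease values was not tested. In whole tissue, fewer cells of a type and less RNA per cell cannot be told apart.

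All 4 tested neutrophil markers were called higher in treated than in control WT colon, and their summed level was mostly Ly6g, at 305 to 324 CPM in WT AOM-DSS, 135 to 207 CPM in control and 303 to 348 CPM in Claudin-2TG libraries, while Ctsg was at 0 throughout and Elane had at most 0.0504 CPM. Between the treated groups 3 of these markers were tested (median log2 fold change -5.12), of which edgeR called 2 lower in Claudin-2TG colon and none higher. Those 2, named after their values were seen, were S100a9 and Csf3r, while the third was Ly6g. S100a9 was at 0.138 to 0.151 CPM in Claudin-2TG and 0.78 to 21.9 CPM in WT AOM-DSS libraries. Csf3r was at most 0.138 CPM and at 0.728 to 6.85 CPM in the same order. Squamous epithelium markers, listed because a piece of anal canal could bring its own proteases, summed to 26.2, 45.6 and 66.5 CPM in libraries 4, 5 and 6, against 6.72 to 7.77 CPM in control and 9.81 to 11.7 CPM in Claudin-2TG libraries. Prss22 had the same order over these libraries, as did the macrophage sums and the mast cell sums (22.6, 30.9 and 88.4 CPM). Krt14 (12.5 to 28.6 CPM) and Krt13 (6.19 to 22.7 CPM) made up most of it, while Krt5 was at most 0.156 CPM and Trp63 at most 0.132 CPM. Of the pancreas acinar list, Cela1 was at 411 to 806 CPM, 8 of 9 genes had a mean under 1 CPM, and Amy2a5 was at 0. The 6 smooth muscle markers summed to 1030 to 2940 CPM, 1950 to 3970 CPM and 931 to 1440 CPM in WT AOM-DSS, control and Claudin-2TG libraries. Endothelial sums were 38.6 to 50.7, 35.1 to 46.0 and 21 to 24.2 CPM, and those of neuron and glia 9.96 to 24.2, 30.7 to 49.4 and 10.5 to 15.1 CPM, in that order of groups.

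Other inhibitors of serine proteases were counted as a list. Of 42 listed, 25 were tested in WT AOM-DSS against control, of which 8 rose and 2 fell, and the median log2 fold change was 0.37 beside 0.02 over all genes. Slpi, the secretory leukocyte protease inhibitor, was at 17.9, 22.8 and 31.7 CPM in control, 145, 136 and 153 CPM in WT AOM-DSS and 21.4, 31.6 and 52.8 CPM in Claudin-2TG libraries, with treated WT colon apart from the rest. It rose 5.99-fold in treated WT colon (edgeR adjusted p = 0.00159) and was 4.09-fold lower in Claudin-2TG than in WT AOM-DSS colon (0.00999, but 0.063 without library 8). Wfdc18, a small secreted protein of the same fold, was at 57.5, 210 and 458 CPM in WT AOM-DSS libraries against 12.4 ± 2.18 CPM in control (SD, n = 3, edgeR adjusted p = 0.0187). Without control 1, 2 or 3 the edgeR adjusted p of Wfdc18 was 0.0634, 0.0801 and 0.0603, and with no filter it was 0.0744. Without library 6 its log2 fold change was 3.44 against 4.29 with it. Serpina3g, a serpin, rose 12.3-fold (edgeR adjusted p = 0.0184, and 0.0811 and 0.073 without control 2 or 3 and 0.0523 with no filter), and its log2 fold change was 3.03 without library 5 against 3.62 with it. Tfpi2, a Kunitz-type inhibitor as are Spint1 and Spint2, fell from 4.59 ± 0.884 to 0.95 ± 0.141 CPM (SD, n = 3, edgeR adjusted p = 0.00763).

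Of the listed inhibitors, 23 were tested in Claudin-2TG against WT AOM-DSS colon, 7 were lower and 2 higher, with a median log2 fold change of -0.41. Wfdc18 was 15.7-fold lower (edgeR adjusted p = 0.0251) and Serpina3g 11.7-fold lower (0.0171). Tfpi2 was 3.54-fold higher (edgeR adjusted p = 0.0118). Leaving out 1 of libraries 7 to 9 raised the edgeR adjusted p to 0.0522 to 0.0632 for Tfpi2, to 0.0652 to 0.0912 for Serpina3g and to 0.0889 to 0.108 for Wfdc18, and leaving out library 5 raised that of Wfdc18 to 0.0926. With no filter it was 0.113 for Wfdc18 and 0.0552 for Serpina3g. The log2 fold change of Wfdc18 was -3.10 without library 6 against -3.97 with it, and that of Serpina3g -2.96 without library 5 against -3.55 with it. Against control, 3 of 22 were called lower and none higher; these, named after their values were seen, were Serpinh1 (log2 fold change -1.55), Wfdc1 (-1.45) and Serping1 (-0.55). Serpinh1 encodes a collagen chaperone of the serpin family and not a protease inhibitor, although it is on the list. The call of Serping1 was lost without library 1 (edgeR adjusted p = 0.104), 3 (0.117), 7 (0.0615) or 8 (0.122), with all 9 libraries in the fit (0.256) and in lane 1 (0.0554) or lane 2 only (0.0552).

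Other proteases were mostly at low levels. Of 18 other membrane-anchored proteases, 8 were tested in WT AOM-DSS against control, with 1 higher and 1 lower. Prss27, an anchored tryptase-like protease, rose from 0.276 ± 0.2 to 3.22 ± 2.37 CPM (SD, n = 3, edgeR adjusted p = 0.0369), and Hpn, the transmembrane protease hepsin, fell from 16.8 ± 2.99 to 9.23 ± 2.6 CPM (SD, n = 3, 0.0467). Both calls were lost without any 1 of libraries 1, 2, 3, 5 and 6 (edgeR adjusted p 0.0822 to 0.115 for Prss27 and 0.087 to 0.143 for Hpn). That of Prss27 was also lost with no filter (0.0665), and that of Hpn with upper quartile scaling (0.0586), with at least 10 counts in every library (0.0557) and in lane 2 only (0.0949). Between the treated groups edgeR called none of 7 (3 had an unadjusted p under 0.05). There Prss27 was at 0.384 ± 0.212 CPM in Claudin-2TG colon (SD, n = 3, log2 difference -3.01, edgeR adjusted p = 0.0501), and was called in 5 of 11 alternatives, with adjusted p-values of 0.000674 to 0.169. In Claudin-2TG against control colon edgeR called 1 of 7, Tmprss5 (log2 fold change -2.35), named after its value was seen and not called without library 8 (0.0515) or with all 9 libraries in the fit (0.0515).

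Of 17 other secreted proteases, 7 were tested and 2 rose in WT AOM-DSS against control. Htra1, which cleaves matrix proteins, rose 6.68-fold to 79.8 ± 60.6 CPM (SD, n = 3, edgeR adjusted p = 0.0304), and Prss12, known as neurotrypsin, rose 11.9-fold to 6.94 ± 5.27 CPM (SD, n = 3, 0.0327). Compared with WT AOM-DSS, 3 were lower in Claudin-2TG colon, Htra1 by 9.96-fold (edgeR adjusted p = 0.0274), Prss12 by 9.43-fold (0.048) and Prss16 by 6.89-fold (0.0178). Prss16 is a carboxypeptidase-like enzyme of the thymus and not a trypsin-like protease, although it is on the list. It was also the 1 called of 7 in Claudin-2TG against control colon (3.30-fold lower, edgeR adjusted p = 0.0477). Against control, the edgeR adjusted p of Htra1 was 0.0821, 0.109, 0.0873 and 0.0582 without library 1, 2, 3 or 5, its log2 fold change was 1.98 without library 6 against 2.74 with it, and the adjusted p of Prss12 was 0.0975, 0.122, 0.101, 0.0693 and 0.0746 without library 1, 2, 3, 5 or 6. With no filter these were 0.12 and 0.103. Between the treated groups the call of Htra1 was lost without library 5, 7, 8 or 9 (0.08 to 0.114) and with no filter (0.122), and its log2 fold change was -2.54 without library 6 against -3.32 with it. There the call of Prss12 was lost without any 1 of libraries 5 to 9 (0.106 to 0.172), with no filter (0.163) and in lane 1 only (0.0601), and that of Prss16 without library 5, 7, 8 or 9 (0.0571 to 0.0928). In Claudin-2TG against control colon Prss16 was not called without library 1 (0.0915), 3 (0.2), 7 (0.0886), 8 (0.173) or 9 (0.0708), by DESeq2 (0.0585) or with all 9 libraries in the fit (0.13). Of 14 kallikreins, 2 were tested and edgeR called none in WT AOM-DSS against control (2 had an unadjusted p under 0.05) or in Claudin-2TG against control (1 had). Klk15 was at 18.0 ± 7.10 CPM in WT AOM-DSS against 4.45 ± 3.08 CPM in control (SD, n = 3, log2 difference 2.03, edgeR adjusted p = 0.0592), and was called in 3 of 14 alternatives, by DESeq2 (0.000978), with all 9 libraries in the fit and without library 4 (0.0355). The adjusted p over these alternatives ran from 0.000978 to 0.198. Klk15 was 10.5-fold lower in Claudin-2TG than in WT AOM-DSS colon (1.72 ± 0.544 against 18.0 ± 7.10 CPM, SD, n = 3, edgeR adjusted p = 0.00592, and 0.0515 without library 8).

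Receptors and substrates of these proteases were counted in the same way. Of 4 protease-activated receptors, 3 were tested in WT AOM-DSS against control and edgeR called none (2 had an unadjusted p under 0.05). F2r, the thrombin receptor PAR1, missed the threshold there (log2 difference 1.01, edgeR adjusted p = 0.0518). It was called in 6 of 14 alternatives, with adjusted p-values of 0.0106 to 0.17. Between the treated groups 2 of 3 receptors were lower in Claudin-2TG than in WT AOM-DSS colon. F2r was 2.98-fold lower in that comparison (edgeR adjusted p = 0.0476). F2rl3, named after its value was seen, fell by 1.98 on the log2 scale (0.0269). The call of F2r was lost without library 5 (edgeR adjusted p = 0.152), 6 (0.0955), 8 (0.149) or 9 (0.177), with at least 10 counts in every library (0.0514) and in lane 1 only (0.0764). That of F2rl3 was lost without any 1 of libraries 5 to 9 (0.0817 to 0.145) and by DESeq2 (0.0875). Of 13 genes of the hepatocyte growth factor axis, the sodium channel and junction substrates, 11 were tested. Of the sodium channel subunits listed, Scnn1b and Scnn1a were called in opposite directions in treated WT colon, and Scnn1g was not called. Scnn1b rose from 10.6 ± 2.55 to 26.6 ± 4.64 CPM (SD, n = 3, edgeR adjusted p = 0.0115), while Scnn1a fell from 217 ± 28.3 to 135 ± 27.2 CPM (SD, n = 3, 0.0377, and 0.0589 to 0.119 without any 1 of libraries 1, 2, 3, 5 and 6).

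None of those 11 genes was called by edgeR between the treated groups, where 3 had an unadjusted p under 0.05. In WT AOM-DSS against control Scnn1b and Scnn1a were the only genes of that list called. Against control, Claudin-2TG colon had Cldn7, a junction protein, 1.24-fold higher (edgeR adjusted p = 0.0483) and Egfr 1.33-fold lower (0.0301). The Cldn7 call was lost without any 1 of the 6 libraries (edgeR adjusted p 0.0559 to 0.131) and under each other edgeR alternative (0.0511 to 0.148). That of Egfr was lost without control 1 (0.057), 2 (0.0693), 3 (0.129) or Claudin-2TG 8 (0.111), with all 9 libraries in the fit (0.264) and in lane 2 only (0.111).

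The genes most like a member in pattern were found among 13918 genes with a mean of at least 1 CPM, by the mean absolute difference of log2 CPM (0.1 CPM added) over the 9 libraries after centering each gene. Nearest to Prss56 were Krt90 (0.50), Psapl1 (0.51) and Khdc1a (0.52), with Krt90, a keratin, at 9.52 to 12.6 CPM in WT AOM-DSS and at most 0.293 CPM elsewhere. Among the nearest to Prss22 were Sp5 (0.46) and Wnt10a (0.58). Sp5, a transcription factor, was at 4.26 to 33.4 CPM in WT AOM-DSS libraries and at most 0.345 CPM elsewhere, and Wnt10a, a Wnt ligand, at 3.80 to 35.2 CPM against at most 0.101 CPM. Nearest to Plau were Svep1, Csf1 and F2r (each 0.22), and nearest to St14 were Aff4, Ppp1r7 and Sptlc1 (each 0.04). The distances describe these libraries, which share their grouping, and carry no test.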

How the data were processed

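Total RNA of mouse colon was sequenced by the authors as 9 libraries on 2 lanes each. Per the labels, the submitters' processing notes name HISAT2, Subread's featureCounts and build GRCm38, while the study's methods name TopHat2 as the aligner; versions, strand setting and filters are not given in the sources used here. The deposited values are raw read counts per gene, beside an exonic length in bases given as a value of the authors' annotation. Gene symbols were matched for 47224 of 47729 identifiers through GENCODE M21, where 40773 have the same start and end.

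Lanes were summed (chi-square per degree of freedom between lanes 0.995 to 1.057). Each comparison was fitted on its 6 libraries with edgeR 4.0.16 in R 4.3.3 (TMM, filterByExpr with a minimum count of 10 and total of 15, robust quasi-likelihood fit, two-sided test, Benjamini-Hochberg over all genes tested, called at an adjusted p under 0.05). DESeq2 1.42.0, other scalings and filters, all 9 libraries in 1 fit, single lanes and leaving out each library were the alternatives. The fits were tested on simulated data. A pseudocount of 0.1 CPM, not set in advance, was used for pattern distances only. Ratios used SciPy's exact permutation test. Named genes were all 10 members, at most 4 called genes per related list with a mean of at least 1 CPM, taken by size of change in WT AOM-DSS against control, and the 3 genes nearest in pattern to Prss56, Prss22, Plau and St14; others are marked where named, and some genes that met the rule are not reported here. The members and lists were chosen with earlier results of these data known. Precision of low genes is limited by 14142711 to 22262546 counts per library, at which 3 counts are 0.129 to 0.22 CPM.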

Additional observations from a re-analysis of the deposited data

How the results depend on the processing

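The number of the 8 tested genes called in WT AOM-DSS against WT control (2) was 4 with DESeq2 and ran from 0 to 3 without 1 library. Calls over all genes moved as well, from 2310 of 15437 to 3220 with DESeq2. Without 1 library they ran from 135 of 15947 (library 2 left out) to 4080 of 15872 (library 4 left out). In Claudin-2TG AOM-DSS against WT AOM-DSS (1) the number of the 8 was 2 with DESeq2 and with all 9 libraries in the fit. It was 0 in edgeR with library size only, upper quartile, at least 10 counts in every library, lane 1 only and lane 2 only, and ran from 0 to 2 without 1 library. Over all genes 1421 of 14888 were called there in the main fit. Leaving out 1 library gave 58 of 15186 (library 8) to 2894 of 15109 (library 4), and at least 10 counts in every library gave 908 of 13192. In Claudin-2TG AOM-DSS against WT control (1) the number of the 8 was 0 in edgeR with all 9 libraries in the fit and ran from 0 to 1 without 1 library. Over all genes 1501 of 15013 were called there in the main fit, and 445 of 15712 with all 9 libraries in the fit. Without 1 library the calls ran from 525 of 15256 (library 3) to 1383 of 15450 (library 7). Where the number of the 8 was 0, 1 to 5 of the 8 genes had an unadjusted p under 0.05. Under those settings the number over all genes ran from 2733 (of 13192) to 4837 (of 15765).

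Some directions turned, and not only for values near 0. Among those that turned, the main log2 fold change in Claudin-2TG against WT control was -0.33 for Plau and 0.30 for Plat. In Claudin-2TG against WT AOM-DSS, the log2 fold change of St14 was 0.0026 with no filter, that of Spint2 was -0.089 with library size only, -0.022 with upper quartile and -0.0091 with at least 10 counts in every library, and that of Cldn7 was 0.0059 with no filter. With Epcam alone as denominator the difference in log2 ratio was 0.028 for St14 and 0.066 for Spint2, and against WT control it was 0.042 for Tmprss4 and 0.017 for Spint2. In Claudin-2TG against WT control, library size only gave -0.098 for Prss8, -0.056 for St14 and -0.038 for Serpina3g, and lane 1 only gave -0.0033 for Prss8. Without 1 library, log2 fold changes in WT AOM-DSS against control ran from -0.014 to 0.18 for St14, -0.036 to 0.10 for Tmprss4, -0.032 to 0.22 for Spint2 and -0.42 to 0.032 for Egfr. In Claudin-2TG against WT AOM-DSS they ran from -0.12 to 0.066 for St14, -0.087 to 0.17 for Spint2, -0.049 to 0.057 for Cldn7 and -0.44 to 0.0012 for Egfr. In Claudin-2TG against WT control they ran from -0.058 to 0.10 for Prss8, -0.24 to 0.047 for Tmprss2, -0.77 to 0.018 for Plau, -0.12 to 0.55 for Plat and -0.17 to 0.54 for Serpina3g.

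Ratios without 1 library ran, in WT AOM-DSS against control, from -0.33 to 0.056 for St14 to both inhibitors, and relative to epithelial markers from -0.17 to 0.16 for St14, -0.16 to 0.089 for Tmprss4 and -0.065 to 0.080 for Spint2. In Claudin-2TG against WT AOM-DSS they ran from -0.22 to 0.16 for St14 to both inhibitors, and relative to epithelial markers from -0.028 to 0.23 for Prss23, -0.33 to 9.2e-05 for St14, -0.0077 to 0.16 for Tmprss2 and -0.15 to 0.10 for Tmprss4. The cause of these changes was not tested, beyond the fewer samples where a library was left out. Of the fold changes of the 8 genes under alternatives, 285 kept their direction and their side of the threshold, 22 lost a call, 8 gained a call and 21 turned. For related genes, 601 values kept their direction and their side of the threshold, 118 lost a call, 35 gained a call and 10 turned, and those of the genes named stand beside their results. No paired analysis was possible because the groups share no replicate numbers. Genes with few reads, such as Prss56, are limited by depth.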
